A study of Mus musculus with 6 samples.

Results

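The genes examined here encode Polycomb and trithorax proteins, the opposed systems that keep genes silent or active through histone marks. They were 39 genes fixed by name, with subunits of Polycomb repressive complexes 1 and 2 (PRC1 and PRC2), the MLL/COMPASS complexes and the H3K27 demethylases, out of 55487 genes in the count files. Each of the 39 symbols matched 1 Ensembl gene. RNA came from LSK cells (lineage negative, c-KIT positive, SCA1 positive), the marrow fraction with blood stem cells and multipotent progenitors. They were sorted from the femurs and tibiae of 3 BrmKO mice (Brm-/-) and 3 WT mice (wild type), all labelled C56Bl/6. Brm is the older name of Smarca2, which encodes an ATPase that drives SWI/SNF remodelling of nucleosomes. The labels used here give no age, no litter and no account of which part of Brm was removed, and no treatment is named for either genotype. The comparison asks what loss of BRM does to the transcripts of the Polycomb and trithorax machinery in these cells.

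PRC2 methylates lysine 27 of histone H3 and PRC1 places ubiquitin on histone H2A, and both marks are linked to silence. MLL/COMPASS complexes methylate lysine 4 of histone H3, and KDM6A and KDM6B remove methyl groups from lysine 27. In flies SWI/SNF subunits were found as trithorax genes that counter Polycomb, and in mouse blood the balance of these systems is known for its part in stem cell self-renewal.

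Each library was from 1 mouse and held 28.01 to 36.46 M reads in genes. Smarca2 fell in BrmKO, with 26.9, 26.5 and 27.9 CPM (read counts scaled to a common library size) in the BrmKO libraries, against 174, 213 and 150 CPM in the WT libraries (log2 fold change -2.72 ± 0.13 SE, edgeR adjusted p = 2.97e-05). Where along the gene the remaining reads lie was not measured. Smarca4, which encodes the alternative ATPase BRG1, averaged 331 ± 40.8 CPM in BrmKO and 306 ± 40.4 CPM in WT (SD, n = 3 each, edgeR adjusted p = 0.999). All 8 LSK markers were detected and 0 passed, with summed levels of 3136 to 3219 CPM in BrmKO and 2933 to 3150 CPM in WT. Of the genes behind the sort, Kit averaged 976 CPM in BrmKO and 941 CPM in WT, and Ly6a (SCA1) 30.5 CPM in BrmKO and 24.7 CPM in WT. Ly6a is the shorter gene. Per kb of annotated exon Kit stood at 110 CPM in BrmKO and 106 in WT, and Ly6a at 25.3 and 20.5. The lowest of the 8 was Slamf1, at 8.39 CPM in BrmKO and 11.2 CPM in WT. Summed markers of lineage-positive cells lay at 56.7 to 88.5 CPM in BrmKO and 65.0 to 98.8 CPM in WT, with the T cell gene Cd3e at 0 reads. The 7 stromal and endothelial markers summed to 20.9 to 97.6 CPM in BrmKO and 43.0 to 209 CPM in WT, and the 4 platelet and megakaryocyte markers to 387 to 546 CPM in BrmKO and 574 to 757 CPM in WT. Of these, 6 stromal and 4 platelet markers had a fold change below 1. Among the platelet markers 1 passed with each of edgeR, DESeq2 and limma-voom, and with edgeR it was Pf4. Among the stromal and endothelial markers 0 passed with edgeR, 3 with DESeq2 and 1 with limma-voom. All BrmKO libraries lay below all WT libraries in 4 of these 7, against 5.37% of all tested genes. Pdgfra had 0 reads in BrmKO and 27, 19 and 21 in WT, while Col1a1 had a fold change above 1. The part of these cells in the values below was not tested, and in bulk RNA fewer cells of a type and less RNA per cell cannot be told apart. Both libraries numbered 3 stood apart on the second principal component, which held 25.0% of the variance, where reads outside genes made up 9.29% in BrmKO and 8.41% in WT, against 5.79% to 6.61% in the other 4.

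No member of the Polycomb and trithorax set passed the test between BrmKO and WT. All 39 had enough reads to be tested, and 0 passed at an adjusted p of 0.05 with edgeR, DESeq2 or limma-voom, where edgeR passed 0.140% of the 15691 genes tested (0.0829% higher and 0.0574% lower in BrmKO). At an unadjusted p under 0.05 each of these tools marked 1 member, Pcgf2, that is 2.56% of the members against 5.85% of all tested genes with edgeR (3.14% higher and 2.71% lower in BrmKO). The fold changes lay on both sides of 0, with 20 above and 19 below, and 48.8% of all tested genes were above. Their median log2 value was 0.01 for the members and -0.01 over all tested genes, and the median size was 0.08 for the members and 0.12 over all tested genes. The libraries of the genotypes did not overlap in 2 members (5.13%), Pcgf2 and Cbx6, against 11.1% of all tested genes. Without both libraries numbered 3, 0 members passed and Kdm6b was the 1 with an unadjusted p under 0.05.

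The intervals show how large a change the libraries could have missed. For 36 of 39 members the 95% interval of the fold change lay within 1.5-fold either way, as it did for 54.7% of all tested genes, and the other 3 were Pcgf2, Phf19 and Kdm6b. For 37 members it lay within 2-fold either way. Replicate spread was modest. The median biological coefficient of variation estimated by edgeR was 11.3% over the members and 15.8% over all tested genes. Reads per member and library ranged from 37 (Pcgf2) to 10940 (Bap1).

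**Figure D1:**
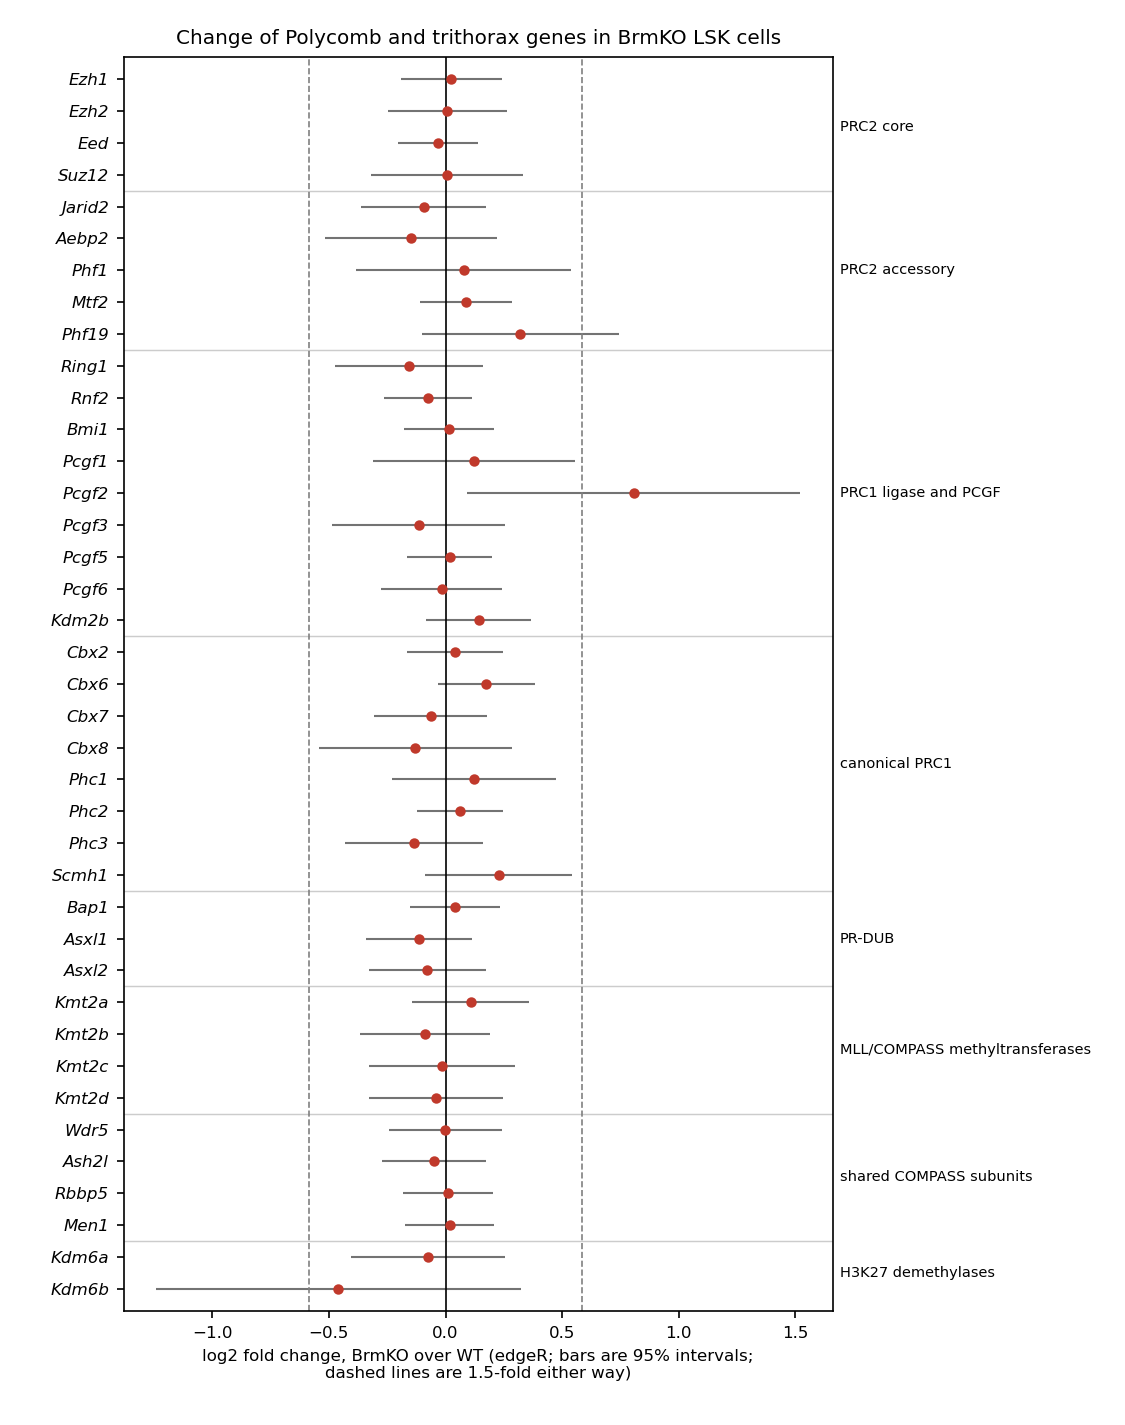
The log2 fold change of BrmKO over WT on the x axis for the 39 members, ordered by role. Bars are 95% intervals derived from the edgeR test, and dashed lines lie at 1.5-fold either way. The intervals of 36 members stay between the dashed lines, and those of Phf19, Pcgf2 and Kdm6b reach past them.

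The PRC2 core did not pass in any of its 4 genes, and their fold changes were between 0.98 and 1.02. Ezh2, the methyltransferase that prevails in dividing cells, had 150, 163 and 122 CPM in BrmKO and 146, 150 and 136 CPM in WT. Its fold change was 1.006 with a 95% interval of 0.843 to 1.20 (edgeR adjusted p = 0.999). Ezh1, its paralogue with weaker catalytic activity, had 81.7, 100.1 and 91.1 CPM in BrmKO and 89.1, 86.3 and 92.8 CPM in WT (fold change 1.02, interval 0.875 to 1.18). The genotypes overlapped in both genes, and the BrmKO libraries were the more spread out. Eed, which binds the methylated lysine and stimulates the enzyme, had the narrowest interval of the core, 0.868 to 1.101. It had 108, 104 and 106 CPM in BrmKO and 107, 110 and 109 CPM in WT. Suz12, the scaffold of the complex, averaged 86.6 ± 12.96 CPM in BrmKO and 86.2 ± 13.7 CPM in WT (SD, n = 3 each), and the library numbered 3 was the lowest of either genotype, at 72.7 CPM in BrmKO and 70.4 CPM in WT. Per kb of annotated exon, a scale that lets genes be compared with each other, Eed stood at 27.7 CPM per kb in BrmKO and 28.4 in WT, Ezh2 at 21.8 and 21.6, Suz12 at 17.5 and 17.4, and Ezh1 at 12.2 and 12.02. Ezh2 held 63.9 ± 3.71% of the summed per-kb level of the EZH genes in BrmKO and 64.3 ± 1.998% in WT (SD, n = 3 each).

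Upstream sequence is shown for the pairs Ezh2 and Ezh1, and Bmi1 and Pcgf2, because their members fill the same seat in a complex at unequal levels. Each is the 250 bases before a RefSeq start site on GRCm38.p6, in the gene's direction, with every CpG in capitals.
Ezh2, chr6:47595031-47595280, minus strand: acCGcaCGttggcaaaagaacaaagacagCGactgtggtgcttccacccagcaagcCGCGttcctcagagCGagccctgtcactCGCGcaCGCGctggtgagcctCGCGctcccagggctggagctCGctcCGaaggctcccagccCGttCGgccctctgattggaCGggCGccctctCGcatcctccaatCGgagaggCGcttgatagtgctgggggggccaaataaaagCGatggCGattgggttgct
Ezh1, chr11:101226464-101226713, minus strand: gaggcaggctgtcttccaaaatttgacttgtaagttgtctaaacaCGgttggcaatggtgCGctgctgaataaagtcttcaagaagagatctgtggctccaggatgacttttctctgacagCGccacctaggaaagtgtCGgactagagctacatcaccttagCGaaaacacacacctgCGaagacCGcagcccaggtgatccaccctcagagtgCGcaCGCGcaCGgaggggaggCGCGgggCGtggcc
Bmi1, chr2:18676768-18677017, plus strand: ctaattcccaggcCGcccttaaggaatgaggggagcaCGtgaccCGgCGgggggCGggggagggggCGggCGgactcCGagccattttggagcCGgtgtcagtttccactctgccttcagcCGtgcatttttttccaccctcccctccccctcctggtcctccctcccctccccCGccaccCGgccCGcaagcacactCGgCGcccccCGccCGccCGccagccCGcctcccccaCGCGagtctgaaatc
Pcgf2, chr11:97699649-97699898, minus strand: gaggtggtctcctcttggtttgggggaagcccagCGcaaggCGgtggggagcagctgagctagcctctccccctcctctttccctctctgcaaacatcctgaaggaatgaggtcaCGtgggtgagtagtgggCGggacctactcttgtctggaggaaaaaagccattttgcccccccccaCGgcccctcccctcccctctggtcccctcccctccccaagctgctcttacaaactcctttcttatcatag
The window of Ezh2 held 23 CpG and that of Ezh1 14. Bmi1 had 21 and Pcgf2, the member with the lowest level, had 5. Other members did not keep this order. Wdr5, at rank 2 of the members per kb of exon, had 12 CpG, and Kmt2c, at rank 33, had 48. A link of CpG number to level was not tested. The windows of Pcgf2 and Ezh2 lie inside the annotated genes, which reach to 97700497 and 47595341, so other start sites lie further upstream.

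Over the members these windows were rich in CpG. The median was 20 CpG in 48 windows of 34 members, against 15 in the 13758 windows of tested genes and 6 in all 32851 windows, and no window was at hand for the other 5. The letters TTTGGCGC or TTTCCCGC, a form of the E2F motif, searched on both strands like all of them, were found in 2 of 48 windows (4.17%), those of Suz12 and Phf19. They were found in 2.35% of the windows of tested genes and 1.30% of all windows. A form of the ETS motif, CCGGAAGT, was found in the window of Asxl2 alone, GCGCATGC (NRF1) in that of Phc3 and AAGATGGC (YY1) in that of Phf19, each 2.08% of the members' windows. In windows of tested genes these motifs had shares of 5.58%, 4.12% and 2.03%, and in all windows 2.88%, 2.26% and 1.56%. None of these motif letters occurred in the windows printed above. An E2F match that ends in GCGC can overlap an NRF1 match that starts with it.

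PRC2 works with accessory subunits, and none of the 5 passed. Phf19, a Polycomb-like protein that helps place PRC2 on DNA, was the furthest from 1, at 12.5, 16.8 and 11.2 CPM in BrmKO and 10.6, 11.8 and 10.1 CPM in WT. BrmKO replicate 2 was the high library, and the genotypes overlapped. Its fold change was 1.25 with an interval of 0.931 to 1.68 (edgeR adjusted p = 0.953). Mtf2, of the same family, had 166, 161 and 170 CPM in BrmKO and 154, 145 and 170 CPM in WT (fold change 1.06, interval 0.927 to 1.22). It held 86.2 ± 2.26% of the summed per-kb level of the 3 Polycomb-like genes in BrmKO and 87.2 ± 1.76% in WT. Phf1, the remaining one, stood at 6.89 ± 1.05 CPM in BrmKO and 6.52 ± 0.549 CPM in WT. Its count is uncertain, since 39.3% of its exon bases overlap Cuta, which lies on the opposite strand, and the library kit does not mark strand. Jarid2 and Aebp2, which together define another form of PRC2, averaged 90.9 ± 8.83 and 47.9 ± 8.90 CPM in BrmKO and 97.0 ± 13.5 and 53.0 ± 8.87 CPM in WT, and both were lowest in the library numbered 3 of either genotype.

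PRC1 is built on a RING1 ligase and a PCGF partner, and of its 9 genes Pcgf2 was the 1 with an unadjusted p under 0.05. Pcgf2 encodes MEL18, a partner that can take the place of BMI1 in canonical PRC1. It had 3.51, 2.51 and 3.08 CPM in BrmKO, from 105, 72 and 106 reads, and 1.77, 2.12 and 1.30 CPM in WT, from 64, 69 and 37 reads. All BrmKO libraries lay above all WT libraries, as they did in 5.69% of all tested genes. The fold change was 1.75 with an interval of 1.07 to 2.87, and it did not pass over all genes (edgeR adjusted p = 0.789). Leaving out 1 library gave a log2 fold change between 0.64 and 0.98, against 0.81 with all, and the unadjusted p was above 0.05 when replicate 1 or 3 of either genotype was missing. Pcgf2 held 1.91 ± 0.296% of the summed per-kb level of the 6 PCGF genes, against 1.11 ± 0.255% in WT.

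For the other PCGF genes the libraries of the genotypes overlapped. Bmi1, which stem cells need for self-renewal, had 67.2, 66.6 and 67.8 CPM in BrmKO and 68.3, 68.2 and 62.9 CPM in WT (fold change 1.011, interval 0.885 to 1.16). It held the largest share of the PCGF per-kb level, 37.5 ± 0.819% in BrmKO and 37.8 ± 1.17% in WT. Pcgf5 and Pcgf3 belong to variant PRC1 complexes that lack CBX proteins. Pcgf5 had 101, 93.0 and 99.4 CPM in BrmKO and 96.04, 100.03 and 94.1 CPM in WT. Pcgf3 had 38.4, 39.6 and 43.9 CPM in BrmKO and 32.8, 46.2 and 53.1 CPM in WT, and the BrmKO libraries lay within the range of the WT libraries. Pcgf6 averaged 39.3 ± 4.46 CPM in BrmKO and 39.8 ± 2.29 CPM in WT, and Pcgf1 12.3 ± 2.27 CPM in BrmKO and 11.3 ± 1.72 CPM in WT. Kdm2b, which brings the PCGF1 complex to unmethylated CpG islands, had 102, 89.1 and 83.6 CPM in BrmKO and 87.7, 82.3 and 79.1 CPM in WT (fold change 1.104, interval 0.944 to 1.29). Bmi1 and Pcgf1 each have a near-identical pseudogene, but those copies had 5 and 2 reads over the BrmKO libraries and 3 and 1 over the WT libraries.

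The ligases themselves did not pass either. Rnf2, the main ligase of PRC1 (RING1B), had 99.9, 93.5 and 107 CPM in BrmKO and 106, 103 and 107 CPM in WT (fold change 0.950, interval 0.833 to 1.08). Ring1 had 24.1, 27.8 and 20.9 CPM in BrmKO and 28.7, 28.3 and 24.1 CPM in WT (fold change 0.897, interval 0.719 to 1.12). Rnf2 held 76.4 ± 3.79% of their summed per-kb level in BrmKO and 75.4 ± 1.98% in WT.

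**Figure D2:**
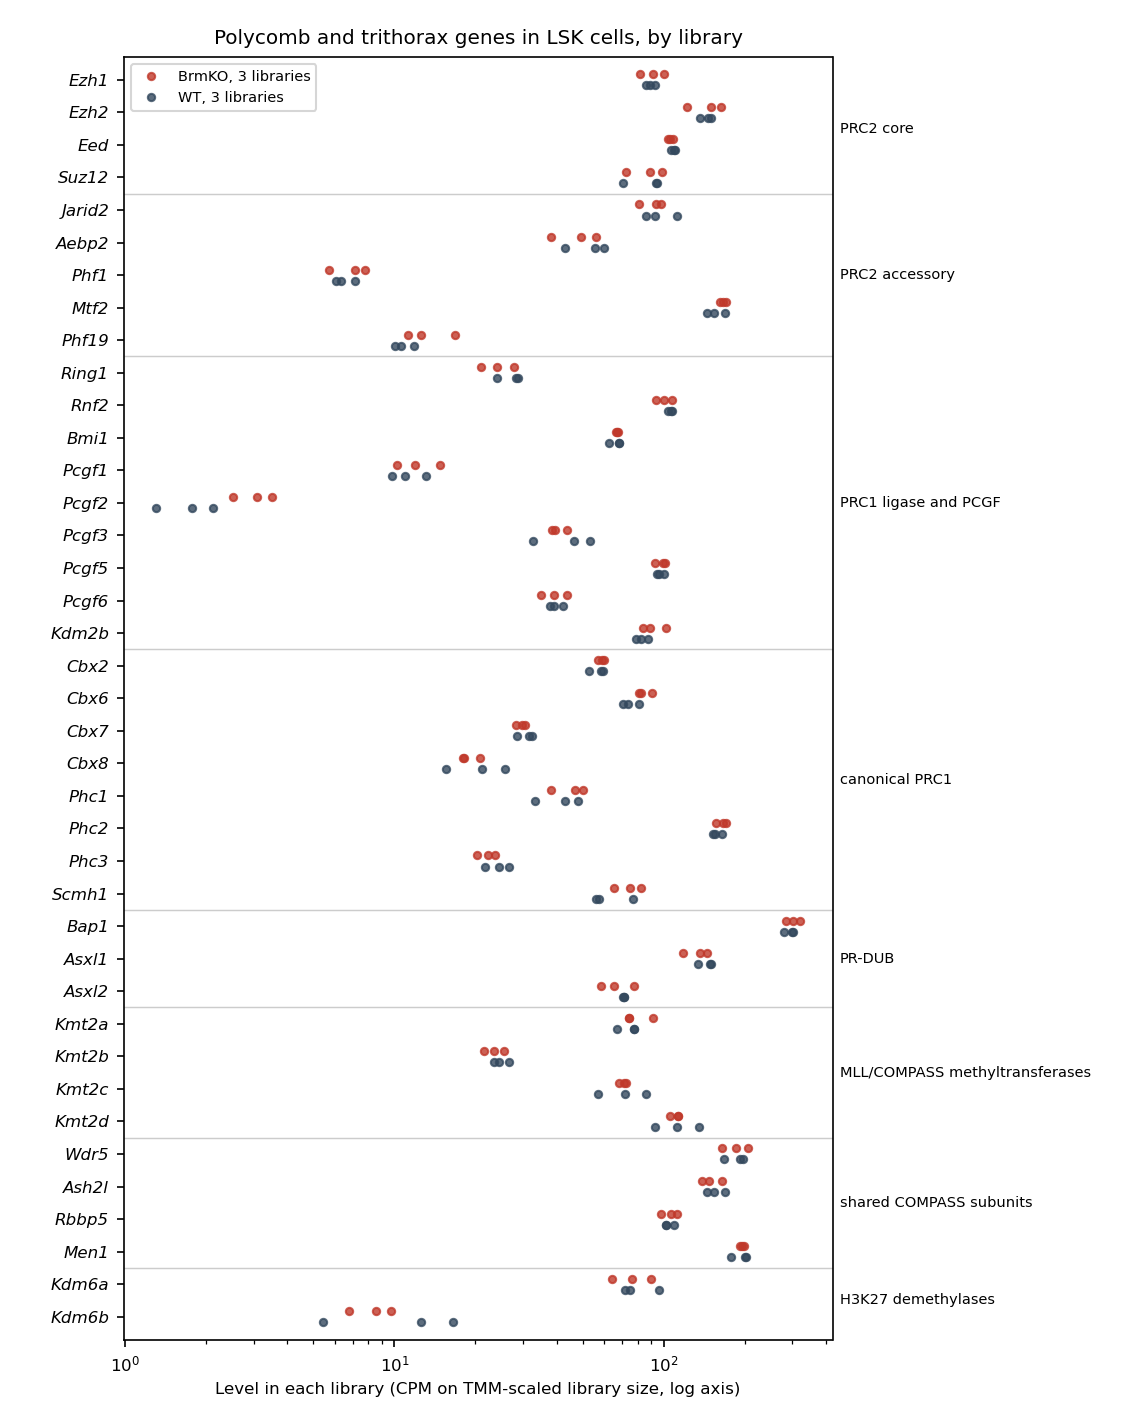
The level of each member in each library in CPM on a log axis, with 3 BrmKO points above 3 WT points in every row and the genes grouped by role. The genotypes overlap in all rows other than Pcgf2 and Cbx6, and levels run from 1.30 CPM (Pcgf2 in WT replicate 3) to 322 CPM (Bap1 in BrmKO replicate 1).

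Canonical PRC1 adds a CBX protein, which reads methylated lysine 27, and a PHC protein, which joins complexes into larger assemblies. None of the 8 genes passed, and all 8 intervals lay within 1.5-fold. Cbx6 had 90.5, 81.3 and 82.4 CPM in BrmKO and 70.6, 80.9 and 73.6 CPM in WT. The genotypes did not overlap, but the nearest libraries differed by little, BrmKO replicate 2 at 81.3 CPM and WT replicate 2 at 80.9 CPM. The fold change was 1.13 with an interval of 0.977 to 1.31 (edgeR adjusted p = 0.913). Cbx7, which in mouse blood is linked to stem cell self-renewal, had 30.5, 29.7 and 28.2 CPM in BrmKO and 28.5, 31.5 and 32.3 CPM in WT. Cbx8 had 18.2, 18.0 and 20.8 CPM in BrmKO and 21.1, 15.6 and 25.7 CPM in WT, with all BrmKO libraries inside the WT range. Cbx2 averaged 58.6 ± 1.43 CPM in BrmKO and 57.0 ± 3.63 CPM in WT, and held the largest part of the per-kb level of these 4 CBX genes, 43.8 ± 0.853% in BrmKO and 43.4 ± 3.28% in WT. Cbx2 and Cbx8 lie 5.04 kb apart on chromosome 11, and Cbx6 and Cbx7 lie 81.1 kb apart on chromosome 15.

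Among the PHC genes Phc2 was the highest, with 171, 166 and 156 CPM in BrmKO and 165, 155 and 152 CPM in WT (fold change 1.04, interval 0.918 to 1.19). Phc1 had 50.2, 38.1 and 47.0 CPM in BrmKO and 42.9, 48.2 and 33.2 CPM in WT, spread alike in both genotypes. Phc3 averaged 22.0 ± 1.70 CPM in BrmKO and 24.2 ± 2.52 CPM in WT. Scmh1, a sex comb protein found with PRC1, had 82.4, 75.3 and 65.4 CPM in BrmKO and 57.6, 76.7 and 56.0 CPM in WT. WT replicate 2 lay among the BrmKO libraries, and the fold change of 1.17 had an interval of 0.941 to 1.46 (edgeR adjusted p = 0.957). Leaving out WT replicate 2 gave 0.39 on the log2 scale, against 0.23 with all libraries (edgeR adjusted p = 0.717).

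The Polycomb deubiquitinase removes the PRC1 mark, and its 3 genes had intervals within 1.5-fold. Bap1, its catalytic subunit, was the most abundant member per kb, at 64.6 ± 4.04 CPM per kb in BrmKO and 62.8 ± 2.66 CPM per kb in WT, above 94.4% of all tested genes. Asxl1, a cofactor of BAP1 often mutated in human myeloid disease, had 145, 137 and 118 CPM in BrmKO and 150, 149 and 134 CPM in WT (fold change 0.924, interval 0.790 to 1.08). Asxl2 had 65.3, 58.5 and 77.7 CPM in BrmKO and 70.6, 70.9 and 71.2 CPM in WT, so the WT libraries lay close together inside the BrmKO range. Asxl1 held 80.8 ± 3.82% of the summed per-kb level of the pair in BrmKO and 81.3 ± 1.03% in WT.

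On the trithorax side, the 4 MLL methyltransferases had fold changes between 0.941 and 1.08. Kmt2a (MLL1), needed for blood stem cells in mice, had 91.1, 74.2 and 74.2 CPM in BrmKO and 77.4, 77.5 and 67.1 CPM in WT. BrmKO replicate 1 was the high library (fold change 1.08, interval 0.906 to 1.28). Kmt2b had 23.4, 25.4 and 21.4 CPM in BrmKO and 23.5, 26.6 and 24.5 CPM in WT. Kmt2c and Kmt2d act mainly at enhancers. Kmt2c had 72.7, 68.4 and 71.1 CPM in BrmKO and 56.9, 85.8 and 71.8 CPM in WT, and Kmt2d had 113, 106 and 113 CPM in BrmKO and 112, 136 and 93.0 CPM in WT. In both the WT libraries were more widely spread, with coefficients of variation of 3.14% and 3.70% in BrmKO and 20.3% and 18.8% in WT. Per kb Kmt2d was the highest of the 4, at 5.54 ± 0.205 CPM per kb in BrmKO and 5.70 ± 1.07 in WT. All 4 were far lower on this scale than Wdr5, Ash2l and Rbbp5, the subunits they share.

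Wdr5, Ash2l and Rbbp5 form the module that MLL enzymes need for activity, and Men1 encodes menin, which tethers MLL1 and MLL2. Ash2l had 148, 165 and 139 CPM in BrmKO and 169, 154 and 144 CPM in WT (fold change 0.967, interval 0.828 to 1.13). Men1 had 196, 199 and 192 CPM in BrmKO and 201, 201 and 177 CPM in WT (fold change 1.012, interval 0.885 to 1.16). Wdr5 averaged 186 ± 21.2 CPM in BrmKO and 186 ± 15.7 CPM in WT, and Rbbp5 105 ± 7.01 CPM in BrmKO and 104 ± 4.38 CPM in WT. Wdr5 and Men1 followed Bap1 in the per-kb order, at 51.6 and 51.0 CPM per kb in BrmKO and 51.6 and 50.4 CPM per kb in WT.

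Neither H3K27 demethylase passed, and Kdm6b had the widest WT spread of any member. Kdm6b (JMJD3), which inflammatory signals induce in macrophages, had 9.73, 6.79 and 8.55 CPM in BrmKO and 16.4, 12.6 and 5.41 CPM in WT. WT replicates 1 and 2 lay above all BrmKO libraries and WT replicate 3 below them. The coefficient of variation was 17.7% in BrmKO and 48.7% in WT. The fold change was 0.727 with an interval of 0.423 to 1.25 (edgeR adjusted p = 0.999). Leaving out WT libraries moved it both ways: the log2 fold change of -0.46 became -0.80 without WT replicate 3 (edgeR adjusted p = 0.287), -0.81 without both libraries numbered 3 (edgeR adjusted p = 0.307) and -0.11 without WT replicate 1 (edgeR adjusted p = 0.999). Kdm6a (UTX), the X-linked member, had 89.7, 64.5 and 76.6 CPM in BrmKO and 71.8, 95.9 and 75.2 CPM in WT (fold change 0.950, interval 0.756 to 1.19). Uty, its Y-linked counterpart with little demethylase activity, stood at 53.3 ± 4.54 CPM in BrmKO and 53.9 ± 9.87 CPM in WT.

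Paralogues that fill the same seat were then compared within each library, as a log2 ratio of their CPM. Library scaling cancels in this ratio, apart from a prior count of 2, scaled to library size, that was added to every gene. The prior draws ratios with a low-count gene, such as Pcgf2, slightly toward equal levels. Over 10 pairs the smallest p was 0.1 and all adjusted p were 1 (exact permutation test, two-sided, Benjamini-Hochberg). With 3 against 3 libraries 0.1 is the smallest p that can be had. Bmi1 over Pcgf2 was the 1 pair whose genotypes did not overlap, at 4.23, 4.70 and 4.43 in BrmKO and 5.22, 4.96 and 5.53 in WT on the log2 scale, a difference of -0.78 ± 0.21 (SE, exact permutation p = 0.1). It is not separate from the result for Pcgf2, since Bmi1 had a fold change of 1.011. Ezh2 over Ezh1 was 0.67 ± 0.23 in BrmKO and 0.69 ± 0.13 in WT (SD, n = 3 each), a difference of -0.02 ± 0.15 (SE). The differences of Rnf2 over Ring1, Phc1 over Phc2, Asxl1 over Asxl2 and Kmt2c over Kmt2d were 0.08, 0.07, -0.03 and 0.03, with SE between 0.17 and 0.21. Kmt2a over Kmt2b differed by 0.19 ± 0.14 (SE), and the genotypes overlapped. Kdm6a over Kdm6b was tight in BrmKO, at 3.20, 3.24 and 3.15, and wide in WT, at 2.12, 2.92 and 3.78.

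**Figure D3:**
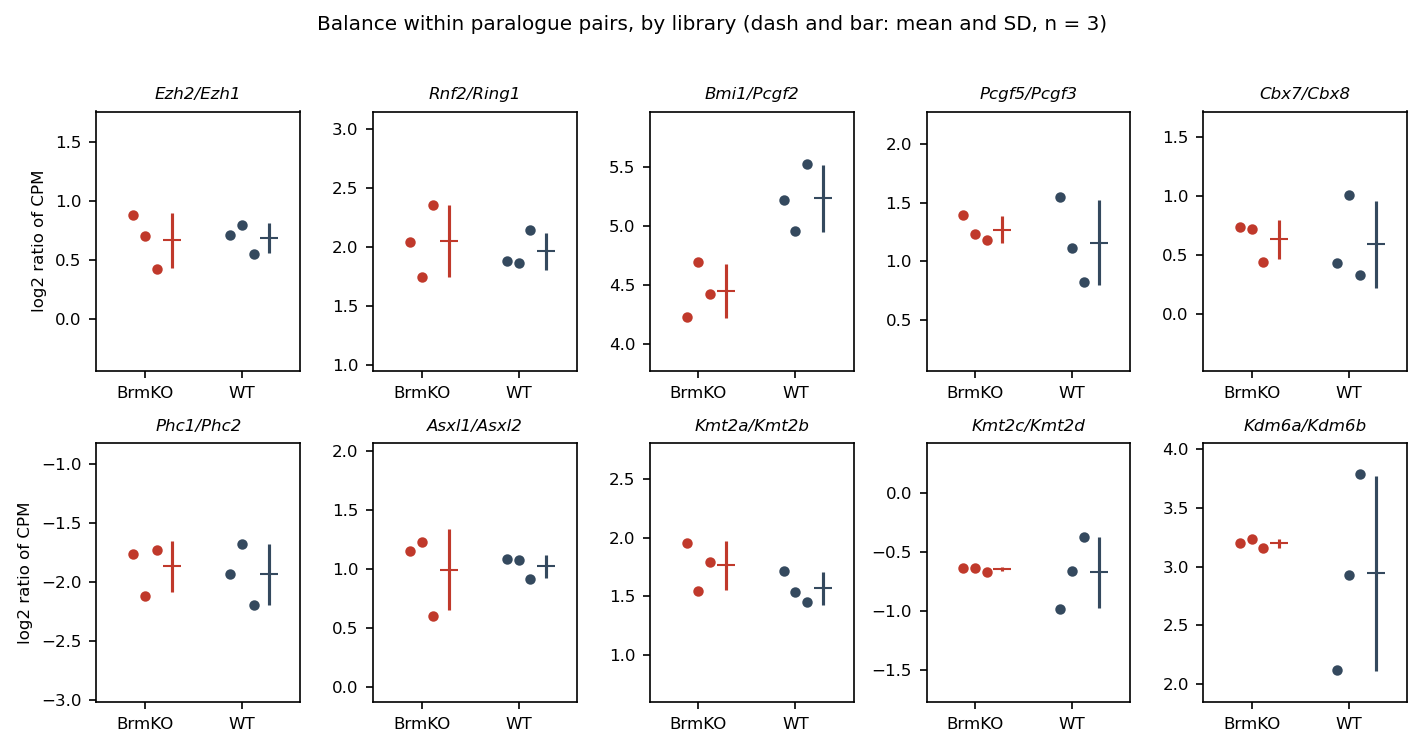
The log2 ratio of CPM, with a prior count of 2, within each of 10 paralogue pairs, BrmKO left and WT right. Each library is 1 point, with the mean and SD beside the points. All panels span the same height, and the genotypes are apart in Bmi1/Pcgf2, with BrmKO between 4.23 and 4.70 and WT between 4.96 and 5.53.

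Members were often lowest in the same numbered libraries. Both libraries numbered 3 were the lowest of their genotype in 17 of 39 members (43.6%), against 22.0% of all tested genes, and the highest in 5 (12.8%), against 23.4%. The 17 held 2 of the 4 PRC2 core genes (Ezh2 and Suz12) and 4 of the 5 accessory genes. Of the 4 COMPASS subunits beside the methyltransferases they held 3 (Wdr5, Ash2l and Men1). The 17 also held 2 of the 9 PRC1 ligase and PCGF genes, 3 of the 8 canonical PRC1 genes and 2 of the 3 deubiquitinase genes. Of the 4 MLL methyltransferases they held 1, and of the 2 demethylases 0. The pattern was not particular to the members. Its share was 46.5% in the other Polycomb and trithorax genes listed below, 33.3% in the MLL1 targets and 12.5% in the LSK markers. The median deviation of the members from their own mean over 6 libraries was 0.06, 0.00 and -0.05 in BrmKO replicates 1 to 3 and 0.02, 0.05 and -0.09 in WT replicates 1 to 3, on the log2 scale. Over all tested genes it stayed between 0.00 and 0.01. Beside these values stand the shares of reads outside genes given above, and their part was not tested.

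**Figure D4:**
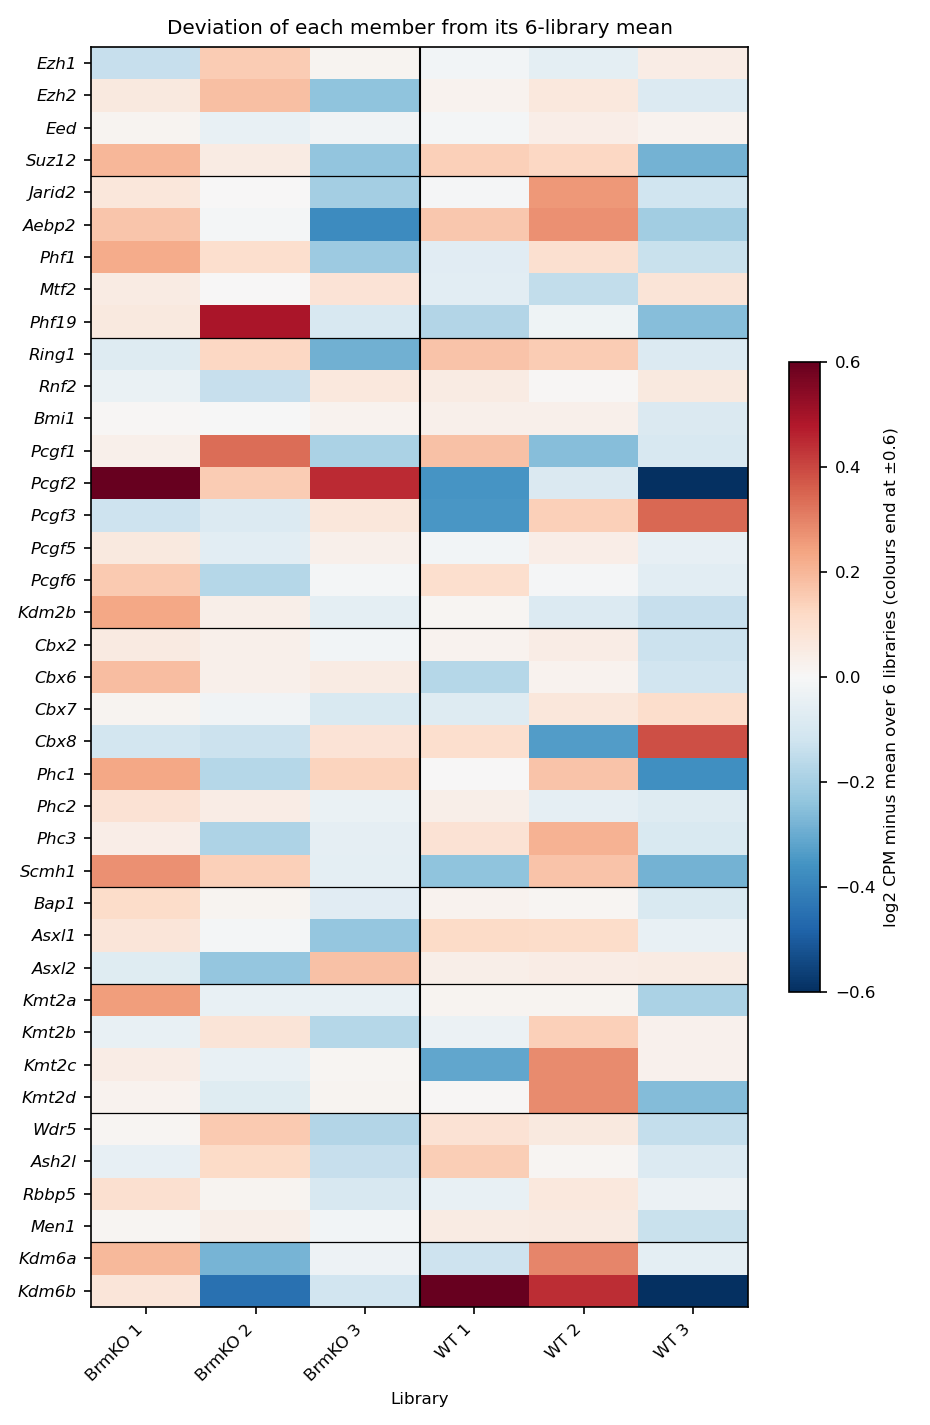
The log2 CPM of each member in each library minus its mean over the 6 libraries, in colour, with BrmKO libraries left of the line and WT libraries right. Blue prevails in WT replicate 3, where the median deviation is -0.09, and the strongest colours are in Pcgf2, Kdm6b and Phf19.

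The 3 members on chromosome 19, where Smarca2 itself lies (26605050 to 26778322 on GRCm38), did not pass. Men1 lies 20.3 Mb before Smarca2, Pcgf5 9.57 Mb behind it and Pcgf6 20.3 Mb behind it. Their log2 fold changes were 0.02 ± 0.09, 0.02 ± 0.08 and -0.02 ± 0.12 (SE).

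Another 46 symbols of these systems were listed, with Skp1a also listed as Skp1, and 45 of them matched a gene in the count files. Of these, 43 were tested with edgeR and 0 passed with edgeR, DESeq2 or limma-voom, with 1, 3 and 2 at an unadjusted p under 0.05 (2.33% with edgeR, against 5.85% of all tested genes), and the median log2 fold change was -0.02. Mga, a DNA-binding protein of the PCGF6 form of PRC1, had the smallest p. It had 85.0, 72.5 and 87.8 CPM in BrmKO and 107, 109 and 104 CPM in WT, and all BrmKO libraries lay below all WT libraries, as in 5.37% of all tested genes. Its fold change was 0.766 with an interval of 0.661 to 0.889, and it did not pass over all genes (edgeR adjusted p = 0.328, and DESeq2 adjusted p = 0.0753). Usp7, a deubiquitinase found with PRC1, had 274, 244 and 198 CPM in BrmKO and 136, 202 and 211 CPM in WT (edgeR adjusted p = 0.841). Lcor, whose gene also encodes a PRC2 partner, had 15.6, 12.6 and 19.4 CPM in BrmKO and 15.9, 21.9 and 27.2 CPM in WT (edgeR adjusted p = 0.887). In both the genotypes overlapped.

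Genes that these complexes are known to control gave no call either. Of 22 genes known as Polycomb-repressed in blood or development, 15 had too few reads to be tested, and 7 of these had 0 reads in all 6 libraries. Cdkn2a and Cdkn2b, the cell cycle inhibitors held down by BMI1 and EZH2, were among the 7, and a count of 0 allows up to 0.0823 to 0.107 CPM per library. So were Gata4, Hoxd8, Hoxc8, Hoxa11 and Hoxa13. Of the 7 tested with edgeR, 0 passed with edgeR, DESeq2 or limma-voom and 0 had an unadjusted p under 0.05. In 0 of the 7 the 95% interval lay within 1.5-fold either way, against 54.7% of all tested genes, so sizeable changes could be missed. That of Cdkn1a ran from 0.418 to 2.16. The genotypes did not overlap in 1 of the 7 (14.3%, against 11.1% of all tested genes), Cdkn1c, with BrmKO above. Hmga2, a chromatin protein of fetal stem cells, stood at 11.02 ± 2.33 CPM in BrmKO and 8.55 ± 1.05 CPM in WT (edgeR adjusted p = 0.930). Cdkn1c, an inhibitor linked to stem cell quiescence, stood at 1.96 ± 0.159 CPM in BrmKO and 1.28 ± 0.353 CPM in WT (edgeR adjusted p = 0.943). Igf2bp3, an RNA-binding protein of fetal cells, stood at 0.657 ± 0.238 CPM in BrmKO and 1.18 ± 0.607 CPM in WT (edgeR adjusted p = 0.983).

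All 15 genes known as MLL1 targets in blood were tested, and 0 passed with edgeR, DESeq2 or limma-voom. Each tool gave 1 at an unadjusted p under 0.05 (6.67%, against 5.85% of all tested genes with edgeR), the genotypes did not overlap in 2 (13.3%, against 11.1%), and the median log2 fold change was 0.07. Hoxa9, a homeobox gene of stem and progenitor cells, had the smallest p, with 116, 103 and 103 CPM in BrmKO and 91.4, 87.8 and 87.4 CPM in WT (fold change 1.21, interval 1.06 to 1.38, edgeR adjusted p = 0.586). Its genotypes did not overlap, nor did those of Hoxa10, at 12.8 ± 0.324 CPM in BrmKO and 10.6 ± 0.679 CPM in WT (edgeR adjusted p = 0.913). Mef2c, a transcription factor of lymphoid-primed progenitors, stood at 286 ± 35.5 CPM in BrmKO and 329 ± 23.6 CPM in WT, with overlap (edgeR adjusted p = 0.913). Meis1, the partner of HOXA9, stood at 208 ± 11.9 CPM in BrmKO and 209 ± 24.7 CPM in WT (edgeR adjusted p = 0.999).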

How the data were processed

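RNA of sorted LSK cells was measured in 3 BrmKO and 3 WT libraries, made from polyadenylated RNA with a Smart-Seq v4 kit, per the labels' protocols. The authors deposited raw read counts for each Ensembl gene, as whole numbers with no scaling. Per the submitters' processing notes the tools were bcl2fastq, FastQC, STAR, HTSeq and DESeq2 on GRCm38; versions, strand setting and annotation were not given in the sources used here. The 5 summary rows of each library were left out of its size and of the tests: reads outside genes (5.79% to 9.29% of the reads), shared by several genes (6.23% to 6.47%), aligned more than once (4.38% to 5.27%), unaligned (1.99% to 2.48%) or of low quality (0.00292% to 0.00368%). Without molecular identifiers, floors cover counting error only.

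Symbols, positions and exon lengths came from GENCODE M21 (GRCm38), matched by identifier for 55227 of 55487 genes. BrmKO was compared with WT by edgeR's quasi-likelihood test (edgeR 4.0.16, R 4.3.3, TMM, filterByExpr, no covariate) over 15691 genes, with Benjamini-Hochberg adjustment and a threshold of 0.05. Intervals are 95%. CPM per kb divides by the joined length of all annotated exons. Paralogue ratios were tested by exact permutation. P-values measure the spread between mice of these groups, and replicate numbers were not taken as pairs. Libraries of a group differed beyond sampling noise (chi-square 13.2 to 43.8 per degree of freedom).

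Every member is named, with library values for those past a call rule, for the 2 with the smallest p in each role and for both genes of each pair. From each other list the 3 with the smallest p are named; Uty, Hoxa10, Meis1 and the genes at 0 reads were added after their values were seen. Members and lists were chosen with earlier results of these data known. Near-identical copies (95% identity over 50% of the length) were searched with minimap2. The tests were tried on simulated data. Alternatives were RLE size factors, no low-count filter, DESeq2 1.42.0, limma-voom (limma 3.58.1), a replicate block and left-out libraries.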

Additional observations from a re-analysis of the deposited data

How the results depend on the processing

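Over 12 alternatives 0 of the 39 members passed in any, with a smallest adjusted p of 0.287, that of Kdm6b without WT replicate 3. With 1 library left out, the members with an unadjusted p under 0.05 numbered 0 to 3, and the median log2 fold change of the members lay between -0.03 and 0.04. The number of all genes that passed was 58 with no low-count filter (40 higher, 18 lower) and 141 with DESeq2 (88 higher, 53 lower), against 22 with edgeR, and 6 to 36 with 1 library left out (2 to 22 higher, 3 to 14 lower). Leaving out BrmKO replicate 1 gave 9, and leaving out WT replicate 1, 2 or 3 gave 7, 6 and 36. With RLE size factors it was 22, with limma-voom 21, and without both libraries numbered 3 18.

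Signs turned in 50 of 468 member values, in 23 members whose log2 fold changes were at most 0.13 in size with all libraries. Wdr5 turned to 0.0017 with RLE size factors, 0.0019 with no low-count filter and 0.0021 with DESeq2, and limma-voom turned Ezh2 to -0.0031 and Kmt2c to 0.0090. Without both libraries numbered 3 the log2 fold change was -0.0082 for Suz12, -0.028 for Bmi1, -0.012 for Pcgf5, 0.0043 for Cbx7, -0.044 for Phc1, 0.014 for Wdr5 and -0.028 for Men1, and the ratio difference was 0.035 for Ezh2 over Ezh1, -0.016 for Pcgf5 over Pcgf3, -0.13 for Phc1 over Phc2 and 0.11 for Asxl1 over Asxl2. With 1 library left out, the log2 fold changes that turned ranged over -0.051 to 0.10 for Ezh1, -0.085 to 0.12 for Ezh2, -0.12 to 0.12 for Suz12, -0.17 to 0.024 for Jarid2, -0.017 to 0.19 for Phf1, -0.023 to 0.037 for Bmi1, -0.029 to 0.25 for Pcgf1, -0.29 to 0.039 for Pcgf3, -0.0034 to 0.053 for Pcgf5, -0.10 to 0.060 for Pcgf6, -0.013 to 0.074 for Cbx2, -0.30 to 0.049 for Cbx8, -0.015 to 0.25 for Phc1, -0.0030 to 0.083 for Bap1, -0.20 to 0.011 for Asxl2, -0.16 to 0.14 for Kmt2c, -0.17 to 0.11 for Kmt2d, -0.084 to 0.081 for Wdr5, -0.12 to 0.014 for Ash2l, -0.030 to 0.060 for Rbbp5, -0.042 to 0.050 for Men1, -0.20 to 0.068 for Kdm6a. The ratio differences ranged over -0.13 to 0.10 for Ezh2 over Ezh1, -0.069 to 0.24 for Rnf2 over Ring1, -0.060 to 0.30 for Pcgf5 over Pcgf3, -0.090 to 0.25 for Cbx7 over Cbx8, -0.060 to 0.20 for Phc1 over Phc2, -0.15 to 0.17 for Asxl1 over Asxl2, -0.13 to 0.18 for Kmt2c over Kmt2d, -0.16 to 0.67 for Kdm6a over Kdm6b. The cause was not tested.

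With the replicate number as a block 25 genes passed and 0 members, with 1 member, Pcgf2, at an unadjusted p under 0.05; Ezh2 turned to -0.00047 and Kmt2c to 0.0041. Deviations of same-numbered libraries correlated at 0.052, 0.0078 and 0.19. The last value, of the libraries numbered 3, was the highest between any BrmKO and WT library. BrmKO replicate 1 correlated best with WT replicate 2, at 0.17. The labels do not say that a number marks a shared litter or day, so the numbers were not taken as pairs. Depth limits Pcgf2 most, at 37 to 106 reads per library.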
